A study of Mus musculus with 8 samples.

Results

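The mouse Cyp2 gene cluster on chromosome 7 was followed in the livers of Tm6sf2 knock-in mice, whose protein has the coding change E167K. The 10 genes described are Cyp2a4, Cyp2a5, Cyp2a12, Cyp2a22, Cyp2b9, Cyp2b10, Cyp2b13, Cyp2f2, Cyp2g1 and Cyp2s1, of 22180 genes on the array. They were taken by symbol from the platform annotation, and the probe set of each was chosen by its mean log2 value over all 8 arrays, the highest standing for the gene. That mean is the only measured value in the choice of probe sets, but the genes themselves were selected on earlier results of these arrays, in which Cyp2g1, Cyp2a5 and Cyp2a4 had already appeared, so their differences are not independent evidence. The study compared 4 liver samples of wild type littermates with 4 of knock-in mice, all labelled male and C57BL/6J, to learn how the variant acts on glucose and lipid metabolism. The labels give no age and disagree on diet: a high-fat diet for 20 weeks in the series text, and either a sucrose-rich diet free of fat or chow for 14 weeks in the note of each array. No result is therefore tied to a diet. The labels do not say outright that every array holds a different animal, so each p-value reflects the spread over these arrays alone, which may be partly technical.

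Cytochromes P450 are haem enzymes of the endoplasmic reticulum membrane that take electrons from P450 oxidoreductase and oxidise steroids, fatty acids, bile acids, drugs and plant compounds. Genes of the Cyp2a and Cyp2b subfamilies are known for large differences between the sexes of the mouse, which follow the pattern of growth hormone release, and for induction through the nuclear receptor CAR. Cyp2a4 and Cyp2a5 are also known as genes with a daily rhythm in mouse liver, under the PAR bZIP factors Dbp, Tef and Hlf.

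The members include near copies, and the sequences before their start sites show how close they are. The following 250 bases before the start that RefSeq's promoter table uses for each gene (GRCm38.p6, plus strand, 5′ to 3′) are those of the genes with the largest differences between arrays and of their closest copies. Of the 10 genes, 9 matched the promoter table. Cyp2g1 did not, so no sequence or motif count below covers it. Capitals mark TTGCATAA, an element of the kind bound by C/EBP and PAR bZIP factors that was chosen after the sequences had been read, and the TATA box letters TATAAA. That start can lie inside the span RefSeq annotates for the gene: the last 59 bases of the window of Cyp2b9 and the last 107 of that of Cyp2b13 overlap the gene's own span, as do 27 of that of Cyp2a22, and the other 6 do not. All positions below are counted from the promoter table's start. The windows are chr7:26306942-26307191 for Cyp2a4, chr7:26835089-26835338 for Cyp2a5, chr7:26173159-26173408 for Cyp2b9, chr7:26061245-26061494 for Cyp2b13 and chr7:25897408-25897657 for Cyp2b10.
Cyp2a4: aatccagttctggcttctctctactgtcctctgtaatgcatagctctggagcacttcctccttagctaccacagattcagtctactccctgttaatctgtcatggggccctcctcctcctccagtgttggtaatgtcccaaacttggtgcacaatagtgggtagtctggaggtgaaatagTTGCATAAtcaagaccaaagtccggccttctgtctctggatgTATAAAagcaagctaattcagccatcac
Cyp2a5: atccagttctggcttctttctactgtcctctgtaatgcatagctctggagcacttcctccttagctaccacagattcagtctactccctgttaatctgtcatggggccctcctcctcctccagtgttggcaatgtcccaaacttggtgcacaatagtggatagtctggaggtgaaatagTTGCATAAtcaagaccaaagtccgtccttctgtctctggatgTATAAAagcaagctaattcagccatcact
Cyp2b9: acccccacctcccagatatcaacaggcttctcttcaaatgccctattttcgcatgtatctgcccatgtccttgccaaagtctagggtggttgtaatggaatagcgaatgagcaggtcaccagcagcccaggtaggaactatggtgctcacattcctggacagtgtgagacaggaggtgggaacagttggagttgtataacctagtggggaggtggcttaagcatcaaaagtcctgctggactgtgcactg
Cyp2b13: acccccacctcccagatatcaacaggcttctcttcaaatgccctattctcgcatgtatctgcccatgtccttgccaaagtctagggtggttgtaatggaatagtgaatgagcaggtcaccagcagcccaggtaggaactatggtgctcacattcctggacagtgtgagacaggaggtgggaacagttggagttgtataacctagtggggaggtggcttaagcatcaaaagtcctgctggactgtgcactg
Cyp2b10: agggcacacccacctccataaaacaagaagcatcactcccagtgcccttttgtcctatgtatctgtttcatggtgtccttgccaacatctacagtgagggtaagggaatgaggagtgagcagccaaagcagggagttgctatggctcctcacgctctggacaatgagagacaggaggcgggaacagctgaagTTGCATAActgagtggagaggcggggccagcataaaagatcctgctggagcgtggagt

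Cyp2a4 and Cyp2a5 were identical in 245 of 249 aligned bases (98.4%), with 4 mismatches and 0 gaps. Cyp2b9 and Cyp2b13 were identical in 248 of 250 bases (99.2%). Cyp2b9 and Cyp2b10 shared 72.7% of aligned columns, and Cyp2a12 and Cyp2a22 shared 83.1%. Cyp2a4 and Cyp2a12 shared 53.5%, which lay within the range of pairs of different subfamilies. Those ran from 44.3% for Cyp2a4 and Cyp2s1 to 55.0% for Cyp2a4 and Cyp2b13. TTGCATAA stood 70 to 63 bases before the start of Cyp2a4, 71 to 64 before that of Cyp2a5 and 58 to 51 before that of Cyp2b10. Of all 32851 promoter windows of the same length, 0.694% held it on either strand. TATAAA was in 4 of the 9 windows (Cyp2a4, Cyp2a5, Cyp2a12 and Cyp2a22) and in 12.4% of all windows. The nuclear receptor hexamer AGGTCA was in Cyp2b9 and Cyp2b13, 138 to 133 bases before the promoter table's start (which lies within the annotated gene in both), in Cyp2f2, and in 14.0% of all windows. On either strand, none of the 9 windows held the D-box letters TTATGTAA or TTACGTAA (0.819% and 0.113% of all windows), the STAT5 letters TTCNNNGAA (7.02%), the E-box CACGTG (6.02%), the antioxidant element TGACNNNGC (10.2%), the C/EBP palindrome TTGCGCAA (0.164%) or the FOXA letters TGTTTAC (3.17%), and CCAAT (33.8%) was in that of Cyp2a12. These matches describe letters in a window and say nothing on binding.

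Values are log2 expression after normalization across arrays by the authors. Array medians were 3.73 to 3.80, and any pair of arrays correlated at 0.973 to 0.980 over all 41345 probe sets. The dim limit, the 40th percentile of each array, was 3.46 to 3.50. A gene was tested if at least 4 arrays, whatever their group, lay above it, which left 13449 genes. The hepatocyte markers averaged 12.9 on every array, and Xist lay between 2.66 and 3.25 on all 8 arrays while Eif2s3y lay between 8.16 and 9.44, which fits the male label. The Tm6sf2 transcript had group means of 9.72 ± 0.22 (wild type) and 9.66 ± 0.27 (knock-in; SD, n = 4 each), which does not check the labels of a coding change. Knock-in replicate 3 stood apart: 12 transcripts of pancreatic acinar cells, a list chosen after the values were seen, averaged 10.2 there and 4.37 in knock-in replicate 4, against 3.21 to 3.46 on the other 6 arrays. None of the 12 separated the genotypes. Results are therefore also given without knock-in replicate 3. With knock-in replicates 3 and 4 both left out, a setting chosen after seeing the data, the differences were 2.90 for Cyp2a4, 1.69 for Cyp2a5, 1.29 for Cyp2g1, 0.26 for Cyp2a12 and 4.54 for Cyp2b9, and 0 members passed the threshold used below (limma adjusted p = 0.103 to 0.482 for these 5).

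Transcripts of 4 cluster genes were higher on every knock-in array than on any wild type array: Cyp2a4, Cyp2a5, Cyp2g1 and Cyp2a12. The background share of tested genes that were higher without overlap was 3.96%. Of the 10 genes, 8 passed the filter on dim values, and Cyp2b10 and Cyp2b13 did not. By limma with Benjamini-Hochberg adjustment over all 13449 genes, 1 member passed the threshold of 0.05, Cyp2g1, against a background of 0.0669% of genes in either direction. The same 4 genes had an unadjusted p under 0.05 and were higher, where the background was 6.01%. A mean at least 2-fold higher in the knock-in was measured for Cyp2b9, Cyp2a4, Cyp2a5 and Cyp2g1, where the background was 0.402%; ordered from the most raised mean to the most lowered, these held places 1, 2, 8 and 21 among all tested genes, whose differences ran from -4.27 to 2.96. Lower values in the knock-in were found for 1 tested member, Cyp2a22, at -0.13.

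**Figure D1:**
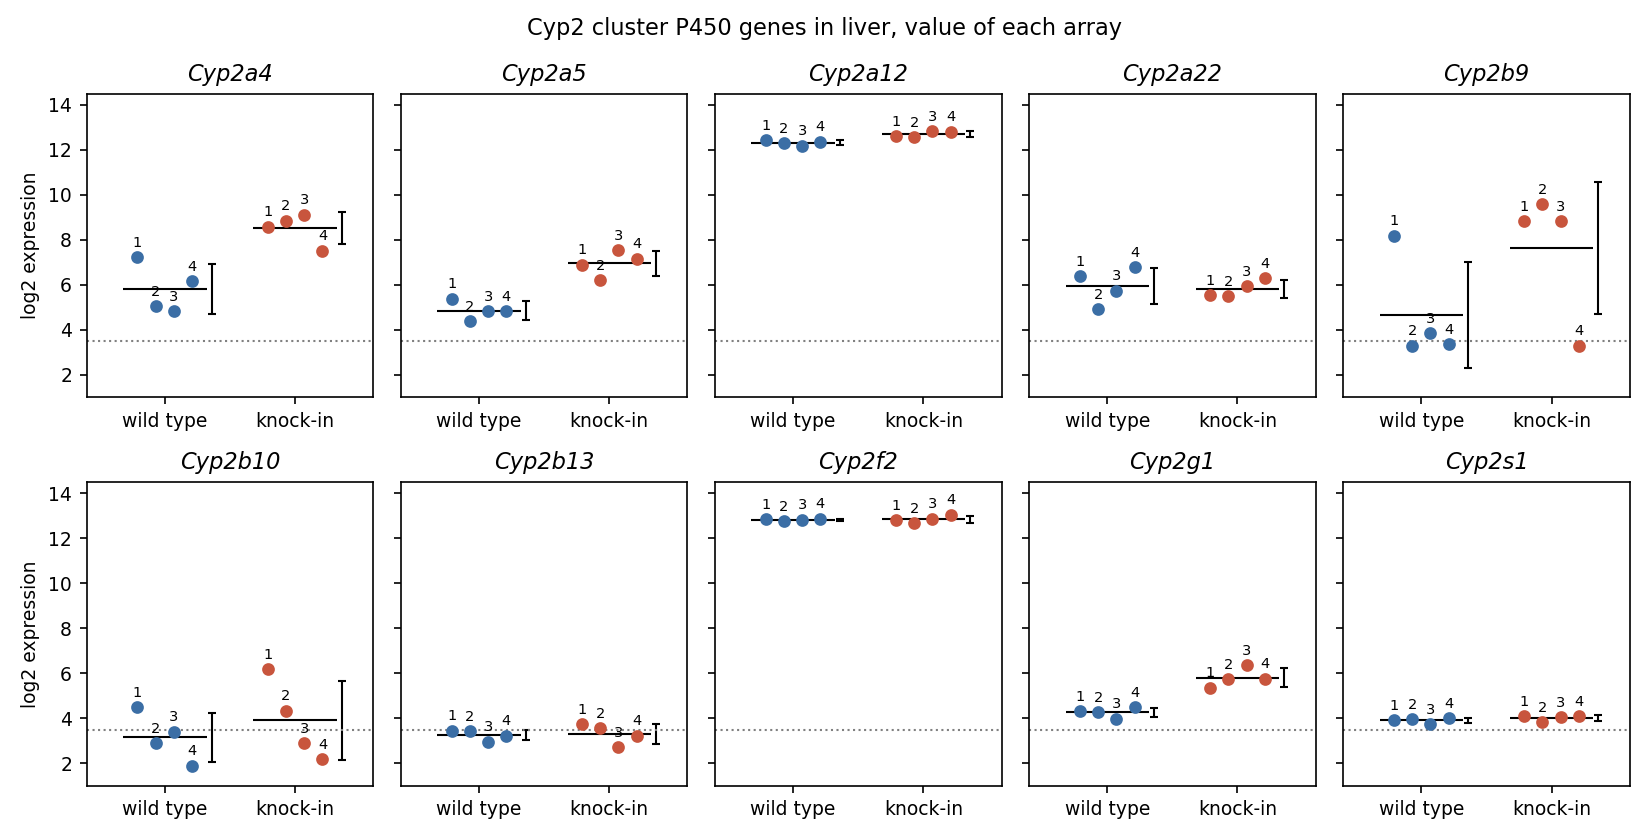
Log2 expression (y axis) of each of the 10 genes in wild type (blue) and knock-in (red) liver, 1 numbered point per array, with the group mean as a line, the SD of 4 arrays as a bar and the mean dim limit dotted. The red points lie wholly above the blue ones for Cyp2a4, Cyp2a5, Cyp2a12 and Cyp2g1, and Cyp2b9 splits both groups.

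Cyp2a5, the coumarin and nicotine hydroxylase of mouse liver, was read by probe set 17475469. It measured 5.37, 4.38, 4.83 and 4.83 in wild type replicates 1 to 4, and 6.89, 6.19, 7.54 and 7.15 in knock-in replicates 1 to 4. The groups were separated by a gap that ran from 5.37 to 6.19. Group means were 4.86 ± 0.40 and 6.94 ± 0.57 (SD, n = 4 each), a log2 difference of 2.09 (SE 0.29, 95% interval 1.42 to 2.75) or 4.25-fold (2.68 to 6.73). This lay just short of the threshold (limma adjusted p = 0.0540). Without knock-in replicate 3, the array with acinar transcripts and also the highest for Cyp2a5, the difference was 1.89 (SE 0.28, adjusted p = 0.162).

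Cyp2a4, a steroid hydroxylase that is higher in female than in male mouse liver, comes before Cyp2a5 in the cluster and was read by probe set 17475399. Wild type replicates 1 to 4 measured 7.23, 5.05, 4.83 and 6.15, and knock-in replicates 1 to 4 measured 8.58, 8.85, 9.11 and 7.52. The gap between the groups was narrow, from 7.23 in wild type replicate 1 to 7.52 in knock-in replicate 4. Means were 5.82 ± 1.11 and 8.52 ± 0.70 (SD, n = 4 each), and the log2 difference was 2.70 (SE 0.54, 95% interval 1.48 to 3.92), or 6.50-fold (2.79 to 15.1). It did not pass (limma adjusted p = 0.119), and without knock-in replicate 3 it was 2.50 (SE 0.59, adjusted p = 0.266).

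The platform gives Cyp2a4 and Cyp2a5 a probe set each and lists 0 probe sets that share a member with another symbol. Because the 2 genes are near copies, RNA of one may still be read by the other's probes, and each value is uncertain to that extent. Their array orders were not the same. Wild type replicate 1 lay 1.42 above its group mean for Cyp2a4 and 0.52 above it for Cyp2a5, and knock-in replicate 4 lay 0.99 below its group mean for Cyp2a4 and 0.21 above it for Cyp2a5.

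Cyp2g1, a P450 best known from olfactory mucosa, lies between Cyp2a4 and Cyp2a5 and was read by probe set 17475458. It measured 4.31, 4.26, 3.98 and 4.48 in wild type replicates 1 to 4, and 5.35, 5.74, 6.36 and 5.76 in knock-in replicates 1 to 4. Wild type arrays thus lay not far above the dim limit, and all knock-in arrays lay higher. Means were 4.26 ± 0.21 and 5.80 ± 0.42 (SD, n = 4 each), and the gene rose by 1.55 (SE 0.20, 95% interval 1.09 to 2.01), or 2.92-fold (2.13 to 4.02; limma adjusted p = 0.0494). The call is a thin one: leaving out any 1 array ended it (adjusted p = 0.0549 to 0.133), while the difference stayed between 1.36 and 1.70. Without knock-in replicate 3, its highest array, the difference was 1.36 (SE 0.15, adjusted p = 0.0774), and with the replicate number as a block adjusted p was 0.161.

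Cyp2a12, which in mice hydroxylates secondary bile acids back toward primary ones, was among the brightest transcripts of the array. It measured 12.43, 12.30, 12.18 and 12.35 in wild type replicates 1 to 4 and 12.60, 12.56, 12.82 and 12.80 in knock-in replicates 1 to 4. The groups did not overlap, but the step was small: 0.38 (SE 0.10, 95% interval 0.16 to 0.60), or 1.30-fold, with limma adjusted p = 0.207 (0.34 and 0.377 without knock-in replicate 3). Near the top of the scale array signals are compressed. Cyp2a22, whose promoter window is the closest match to that of Cyp2a12, measured 6.38, 4.90, 5.73 and 6.77 in wild type and 5.52, 5.49, 5.94 and 6.30 in knock-in replicates 1 to 4. Its groups overlapped throughout, with a difference of -0.13 (SE 0.38, 95% interval -0.98 to 0.72, limma adjusted p = 0.937). Leaving out wild type replicate 1 or 4 turned the sign, to 0.01 or 0.14. Within 1 subfamily the measured differences therefore ran from -0.13 to 2.70; differences between members were not tested.

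Cyp2b9, a P450 that in adult mouse liver is mostly female, had the most raised mean of all 13449 tested genes, yet its groups overlapped. Probe set 17475385 measured 8.17, 3.28, 3.85 and 3.36 in wild type replicates 1 to 4, and 8.83, 9.58, 8.82 and 3.29 in knock-in replicates 1 to 4. Values were thus 8.17 or more on 1 wild type and 3 knock-in arrays, and near the dim limit, at 3.28 to 3.85, on the other 3 wild type arrays and on 1 knock-in array. Means were 4.66 ± 2.35 and 7.63 ± 2.92 (SD, n = 4 each), with a difference of 2.96 (SE 1.53, 95% interval -0.50 to 6.43), which did not pass (limma adjusted p = 0.511). Because the values split in this way, 1 array moves the difference far: it was 4.41 without knock-in replicate 4, 4.13 without wild type replicate 1 and 2.57 without knock-in replicate 3.

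Cyp2b10, the classical target of CAR in mouse liver, measured 4.50, 2.88, 3.39 and 1.88 in wild type replicates 1 to 4 and 6.19, 4.34, 2.89 and 2.18 in knock-in replicates 1 to 4. It lay above the dim limit on 3 arrays, wild type replicate 1 and knock-in replicates 1 and 2, and was set aside by the filter; the difference of 0.74 is given without a test. Each of these 3 arrays was also among the 4 that were high for Cyp2b9. Cyp2b13, another mostly female P450, measured 2.72 to 3.72 on all 8 arrays, lay above the limit on 2 of them, and differed by 0.04. Those 2 were knock-in replicates 1 and 2, at 3.72 and 3.56, which were also high for Cyp2b9. Cyp2b13 thus stayed near or below the limit on the arrays where Cyp2b9 was high. The promoter windows of the 2 genes printed above differ at 2 of 250 bases, and a link of that to these values was not tested. Whether probes of these near copies read each other's RNA was not tested either.

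Cyp2f2, an enzyme of periportal hepatocytes and airway club cells that activates naphthalene, was the brightest member. Its main probe set, 17475498, read 12.76 to 12.87 on wild type arrays and 12.68 to 13.04 on knock-in arrays, a difference of 0.02 (SE 0.09, 95% interval -0.19 to 0.23, limma adjusted p = 0.965) whose sign turned when either wild type replicate 2 (-0.0025) or knock-in replicate 4 (-0.046) was left out. A second and dimmer probe set of the gene, 17488117, measured 5.93 to 6.70 and 6.47 to 6.73, a difference of 0.39 (SE 0.16; limma adjusted p = 0.541, taken over every probe set with 1 symbol). The difference between the readings of the 2 probe sets was not tested. Cyp2s1, a P450 of epithelia outside the liver, stayed near the dim limit, at 3.74 to 3.99 (wild type) and 3.83 to 4.09 (knock-in), with a difference of 0.11 (SE 0.10, 95% interval -0.11 to 0.33, limma adjusted p = 0.722). Without knock-in replicate 3 the differences of Cyp2a22, Cyp2f2 and Cyp2s1 were -0.17, 0.02 and 0.10.

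In the RefSeq gene order of GRCm38.p6 the 10 genes lie on chromosome 7 with Cyp2s1 first and Cyp2f2 last. In order between them stand Cyp2b10, Cyp2b13, Cyp2b9, Cyp2a4, Cyp2g1, Cyp2a5, Cyp2a22 and Cyp2a12. The 4 members with a difference of at least 2-fold, Cyp2b9, Cyp2a4, Cyp2g1 and Cyp2a5, follow one another in this order; Cyp2g1 and Cyp2a5 are direct neighbours, and the vomeronasal receptor gene Vmn1r184 lies between Cyp2b9 and Cyp2a4. Between Cyp2a4 and Cyp2g1 lie the P450 genes Cyp2b23 and Cyp2b19, which were dim, as was Cyp2t4 just outside the cluster: the 3 averaged 2.11 to 2.58 per array. Of the other genes between the outermost members, 5 had a probe set, among them Nlrp and vomeronasal receptor genes, and 0 passed the filter. Outside, the 10 protein-coding genes on each side without Cyp2t4 had 14 tested members, of which 0 passed the threshold, 9 were higher and 5 lower, with a median of 0.09 and a range of -0.28 to 0.28. The median of all tested genes was 0.0046. Of the 14 flanking genes, 2 had an unadjusted limma p under 0.05, both higher, where the background was 6.01%. They were Egln2, a prolyl hydroxylase, at 0.28 (SE 0.09, limma adjusted p = 0.274), and Bckdha, a subunit of the branched-chain keto acid dehydrogenase, at 0.26 (SE 0.09, adjusted p = 0.325). Without overlap between groups, Egln2 was higher (background 3.96%). Ccdc97, at -0.28 (SE 0.13, adjusted p = 0.453), was lower without overlap, as were 431 of all 13449 tested genes.

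**Figure D2:**
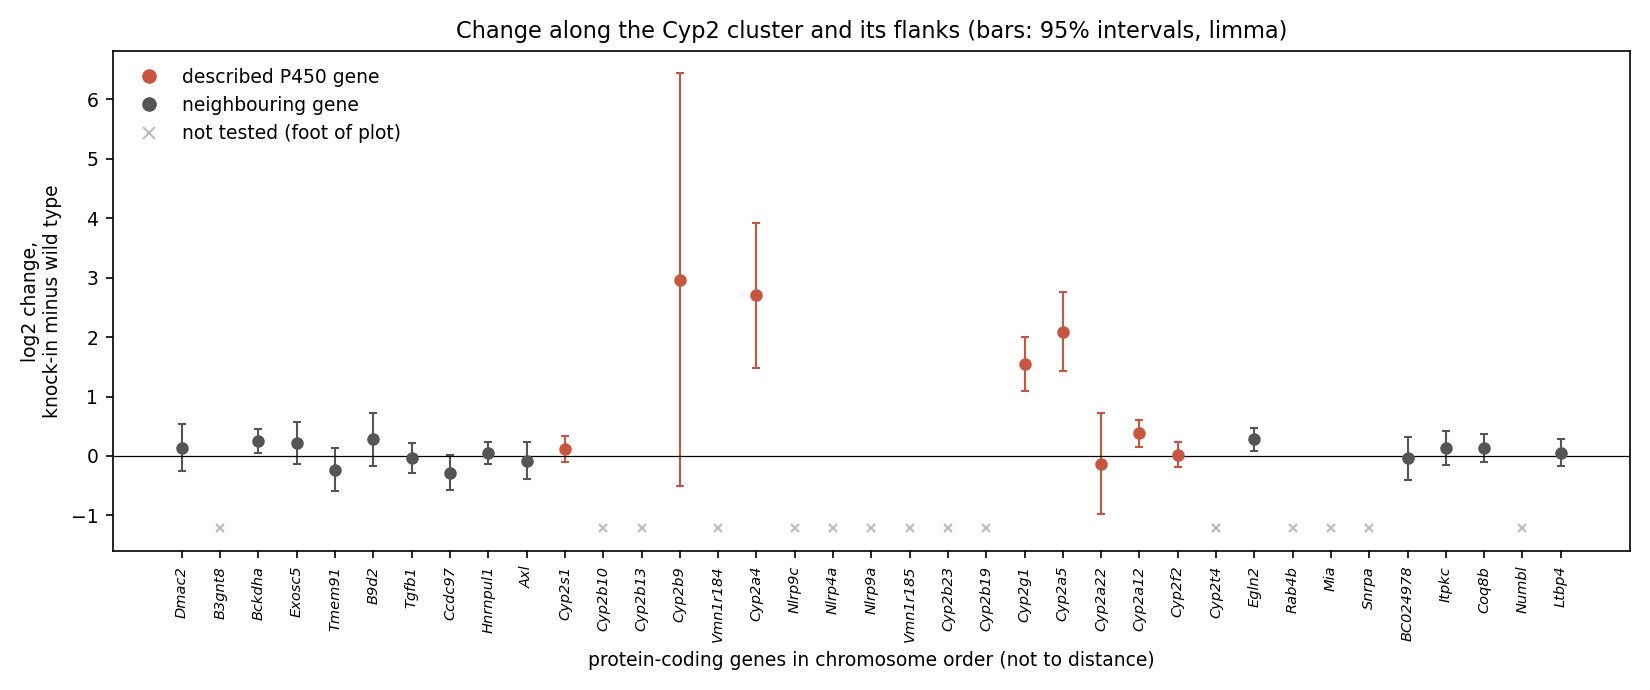
Log2 change, knock-in minus wild type (y axis), with 95% limma intervals for the protein-coding genes of the cluster and 10 on each side in chromosome order (x axis, not to distance). The described P450 genes (red) Cyp2b9, Cyp2a4, Cyp2g1 and Cyp2a5 lie between 1.55 and 2.96, while the tested flanking genes (grey) lie between -0.28 and 0.28.

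Across arrays within a genotype the members fell into different orders. Wild type replicate 1 was the highest wild type array for Cyp2a4, Cyp2a5, Cyp2a12, Cyp2b9, Cyp2b10 and Cyp2b13, and knock-in replicate 3 was the highest knock-in array for Cyp2a4, Cyp2a5, Cyp2a12 and Cyp2g1. Knock-in replicate 4, the lowest knock-in array for Cyp2a4, Cyp2b9 and Cyp2b10, was above its group mean for Cyp2a5, Cyp2a12 and Cyp2f2. With group means removed, Pearson's r over the 8 arrays was 0.83 for Cyp2a4 with Cyp2b9, 0.37 for Cyp2a4 with Cyp2a5 and 0.76 for Cyp2a5 with Cyp2a12; these describe 8 points that share arrays and normalization. By the same measure the 3 tested genes most like each of 4 members were Mirlet7d, Zfp651 and Ly75 for Cyp2a4 (0.96 to 0.97), Ube4a, Rfx3 and Ttc37 for Cyp2a5 (0.95 to 0.97), and Smim8, Lat and Mcm6 for Cyp2g1 (0.97 to 0.98). Dlx3, 9030619P08Rik and Ndc1 were most like Cyp2b9 (0.98 to 0.99), which was added to this search after its values were seen. They are the highest of 13449 genes compared over 8 arrays, and no test was made. Among these 12 genes 9030619P08Rik, singled out after its values were seen, was high on the same 4 arrays as Cyp2b9, at 8.58, 7.17, 7.28 and 7.29 in wild type and 8.60, 8.93, 8.58 and 7.54 in knock-in replicates 1 to 4.

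**Figure D3:**
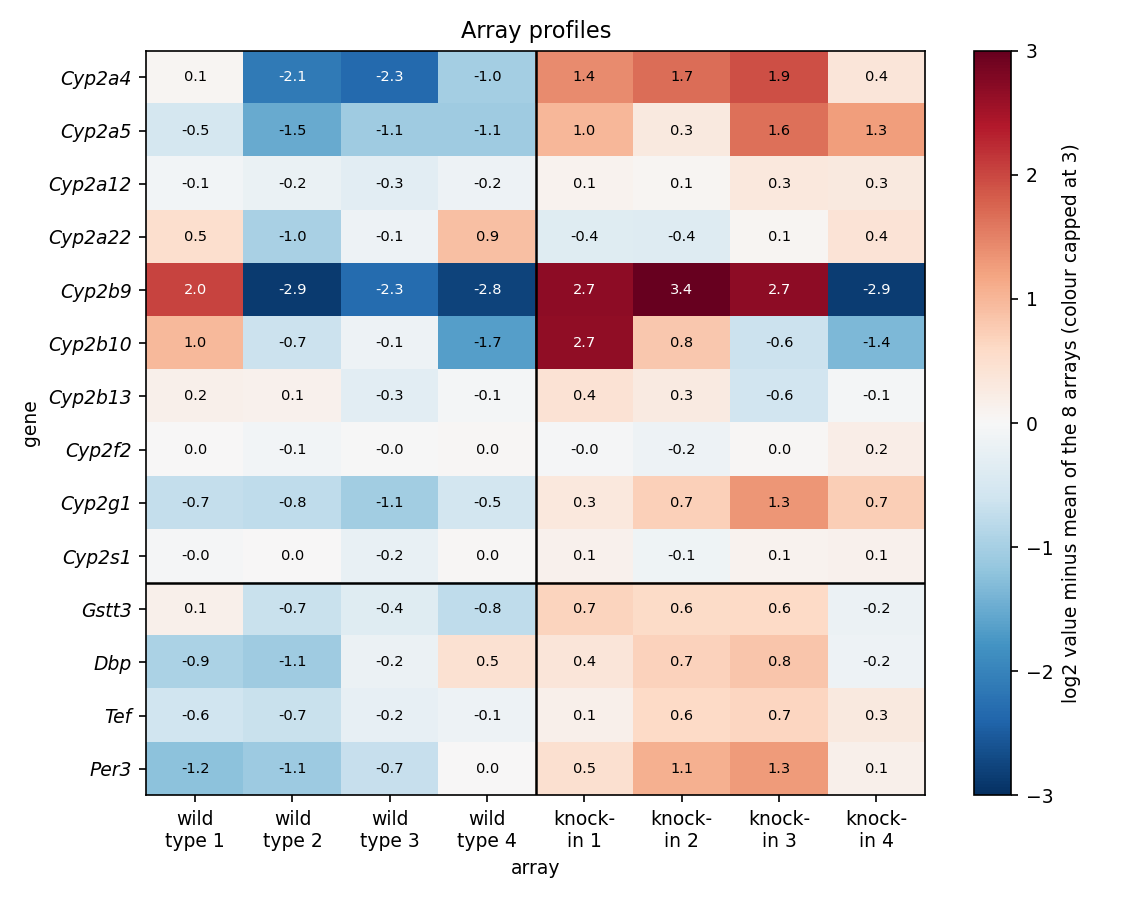
Log2 value of each gene minus its mean over the 8 arrays (colour and number) for the 10 P450 genes and, under the line, Gstt3, Dbp, Tef and Per3, with 1 column per array. Cyp2b9 is high on wild type array 1 and knock-in arrays 1 to 3, whereas Cyp2a5 and Cyp2g1 are above their mean on all 4 knock-in arrays.

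Genes known to act on these P450s were followed through fixed lists. Of 24 tested regulators, 0 passed the threshold over all genes, 15 were higher and 9 lower, with a median of 0.08 beside 0.0046 for all tested genes. Without overlap between groups, 1 regulator was higher (Tef) and 2 were lower (Stat5b and Foxa1), against 532 and 431 of all 13449 tested genes. Tef, one of the PAR bZIP factors, was at 0.84 (SE 0.16, limma adjusted p = 0.119). Dbp, its close relative, measured 8.55, 8.42, 9.31 and 9.95 in wild type and 9.86, 10.18, 10.31 and 9.33 in knock-in replicates 1 to 4, a difference of 0.86 (SE 0.35, adjusted p = 0.385). The coactivator Ppargc1a was at 0.33 (SE 0.11, adjusted p = 0.314), the growth hormone signal carrier Stat5b at -0.29 (SE 0.10, adjusted p = 0.316) and the liver pioneer factor Foxa1 at -0.52 (SE 0.17, adjusted p = 0.321). Nr1i3, which encodes CAR, was at 0.09 (SE 0.13, adjusted p = 0.866), and Nr1i2, which encodes PXR, at 0.33 (SE 0.13, adjusted p = 0.358).

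Clock genes, among them the PAR bZIP factors named above, were followed as well. Of 12 tested clock repressors and outputs, 11 were higher and 1 lower with a median of 0.52. All 3 activators were lower with a median of -1.20, and 0 of these 15 passed. Without overlap, 6 of the 12 were higher (background 3.96%) and 1 activator was lower, as were 431 of all 13449 tested genes. An unadjusted limma p under 0.05 was found for 8 of the 12, all higher (background 6.01%). It was also found for all 3 activators, all lower, and for 711 lower genes among all 13449 tested. Ciart, at 2.51 (SE 0.46, limma adjusted p = 0.109), had the smallest p of the 15. The mean of the first list minus that of the second lay between -1.72 and -0.17 on wild type arrays and between -0.44 and 1.30 on knock-in arrays, and the labels name no hour at which livers were taken. With that score as a covariate, the difference of Cyp2a4 was 1.73 (SE 0.82), that of Cyp2b9 0.61 (SE 2.42), that of Cyp2a5 2.20 (SE 0.50) and that of Cyp2g1 1.21 (SE 0.31), with limma adjusted p of 0.525 to 0.989. The score and genotype overlap in these arrays, so the errors widen, and the part of the clock in the differences was not tested further.

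Of 20 tested targets of CAR and PXR other than the members, 0 passed, 17 were higher and 3 lower, with a median of 0.11. Gadd45b, a stress-inducible gene, was at -1.46 (SE 0.37, limma adjusted p = 0.202), the oestrogen sulfotransferase Sult1e1 at 1.33 (SE 0.53, adjusted p = 0.382), and Cyp2c55 at 0.58 (SE 0.28, adjusted p = 0.480). The glutathione transferase Gstt3 measured 8.40, 7.58, 7.88 and 7.50 in wild type and 8.91, 8.82, 8.84 and 8.08 in knock-in replicates 1 to 4, a difference of 0.82 (SE 0.24, adjusted p = 0.263). Its 4 highest arrays were the 4 on which Cyp2b9 was high. Partners of the P450 reaction and haem enzymes had 13 tested members, 0 past the threshold, with 9 higher and 4 lower and a median of 0.07. Hmox2, a haem oxygenase, was at 0.33 (SE 0.10, adjusted p = 0.266). Uros, an enzyme of haem synthesis, was at -0.20 (SE 0.09, adjusted p = 0.474), and Alas1, the first enzyme of that synthesis, at 0.23 (SE 0.13, adjusted p = 0.560). NRF2 targets had 11 tested members, 4 higher and 7 lower, 0 past the threshold, and a median of -0.09.

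Other genes that are higher in female mouse liver were set beside Cyp2a4 and Cyp2b9; the difference from them was not tested. Of 12 tested, 6 were higher and 6 lower, 0 passed, and the median was -0.01 with a range of -1.02 to 0.33. A1bg was at -1.02 (SE 0.41, limma adjusted p = 0.381), Cux2, a female-specific regulator, at 0.08 (SE 0.39, adjusted p = 0.965), and Sult2a1, Sult2a2, Sult3a1 and Hao2 were dim in both groups. Male-biased genes had 8 higher and 11 lower of 19 tested, 0 past the threshold, with a median of -0.02. Among pericentral genes 8 were higher and 4 lower of 12 tested (median 0.07), and among periportal ones 5 higher and 4 lower of 9 (median 0.02), with 0 past the threshold in either. In whole liver, a change in the number of cells of a type and a change of RNA per cell cannot be told apart.

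Other P450 families are set beside the cluster by their values alone. The Cyp2c family had 12 tested genes, 0 past the threshold, 9 higher and 3 lower, with a range of -0.48 to 0.58 and a median of 0.04. The Cyp3a family had 5, 0 past the threshold, 4 higher and 1 lower, up to 1.01 (SE 0.36, limma adjusted p = 0.340) for Cyp3a25, with Cyp3a59 at 0.97 (SE 0.14, adjusted p = 0.0552). Cyp3a25 and Cyp3a59 were the 2 of these 5 that were higher without overlap, and both had an unadjusted limma p under 0.05. In the Cyp2c family 0 of 12 met either measure, in either direction. All Cyp genes other than the 10 had 55 tested members, of which 0 passed, 34 were higher and 21 lower, 2 had a mean at least 2-fold higher, and the median was 0.04. Of these 55, 5 were higher and 2 lower without overlap. With an unadjusted limma p under 0.05, 5 were higher and 2 lower. The background shares of higher genes by these 2 measures were 3.96% and 6.01%. Of all 13449 tested genes, 431 and 711 were lower by the same 2 measures. The difference between the families was not tested.

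**Figure D4:**
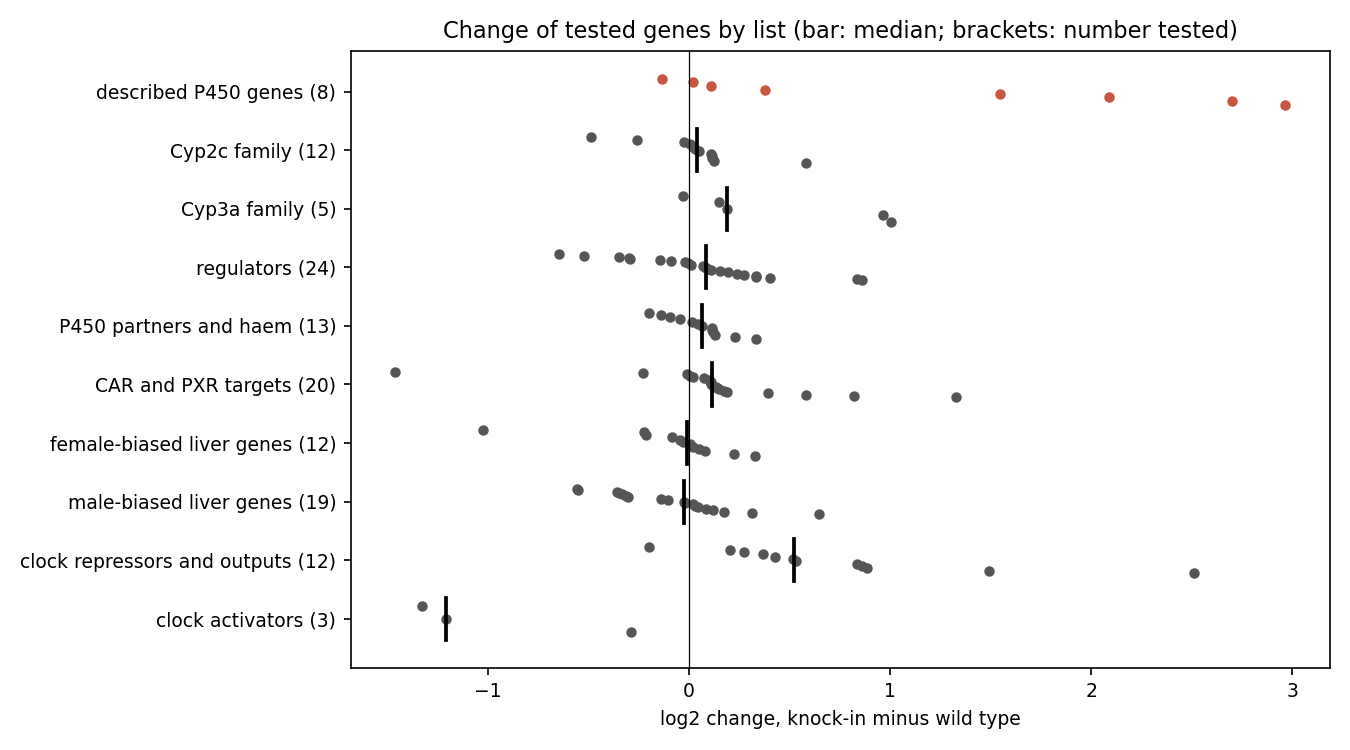
Log2 change, knock-in minus wild type (x axis), of every tested gene of each list (y axis), with the list median as a bar for the comparison lists. The described P450 genes (red) reach 2.96, and of the other lists shown the clock repressors and outputs reach furthest, to 2.51.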

How the data were processed

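In all, 8 liver RNA samples of mice were measured on Affymetrix whole-transcript arrays, from 400 ng of total RNA per array per the labels' protocols. The deposited values are log2 expression, 1 per probe set and array, made by the authors; the submitters' processing notes name RMA and limma without versions or order. The sources used here give neither annotation version nor build. Of 41345 probe sets, 23521 had 1 gene symbol, 1814 several and 16010 none; of those with 1, 23328 matched RefSeq (GRCm38.p6) by Entrez identifier and 0 symbols changed. RMA removes a shift shared by most genes, and array signals are compressed at dim and very bright values.

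Genes were fitted with limma 3.58.1 in R 4.3.3 (lmFit, eBayes, a model with genotype alone, two-sided tests, p adjusted by Benjamini-Hochberg over all tested genes). SE and 95% intervals come from that fit, and the code was tested on simulated data. Promoter windows were aligned globally with Biopython 1.88 (overhanging ends left out). There is no read depth; the number of arrays limits the precision. Members, lists, tests and the naming rule were chosen with earlier results of these data known. The naming rule took all members, up to 4 genes of each list by smallest p and the 3 most alike genes of Cyp2a4, Cyp2a5 and Cyp2g1; further genes named were chosen after their values were seen. Lists of acinar and sex-linked genes and the search around Cyp2b9 were also chosen then. Tried were 19 other settings chosen at the outset and 1 chosen after seeing the data.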

Additional observations from a re-analysis of the deposited data

Results flagged for a closer look

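Of the 20 groups of 4 arrays examined (10 genes in 2 genotypes), 3 held an array far from the other 3 by Dixon's criterion, which about 1 group in 20 exceeds by chance. In wild type liver, replicate 1 measured 8.17 for Cyp2b9, and the nearest other array 3.85. In knock-in liver, replicate 4 measured 3.29 for Cyp2b9, and the nearest other array 8.82. For Cyp2s1, knock-in replicate 2 was lowest at 3.83, with the nearest at 4.05.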

How the results depend on the processing

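The direction of Cyp2a4, Cyp2a5, Cyp2a12, Cyp2b9, Cyp2g1 and Cyp2s1 was the same in every alternative that gave a value, while Cyp2a22 and Cyp2f2 turned in 5 of theirs. The count of members past the threshold, 1 as reported, was 0 with no filter on dim values, 0 when the clock score entered as a covariate and 0 without knock-in replicates 3 and 4 together, an alternative chosen after seeing the data. It was 2 with median centring, 2 with array weights, 2 with the mean of probe sets and 2 over all probe sets, and 3 with a trended and 3 with a trended and robust prior. Leaving out 1 array gave 0 to 1, and the 1 was Cyp2a5 without knock-in replicate 2 (limma adjusted p = 0.0366), not Cyp2g1. A stricter filter also gave 1, again Cyp2a5 (limma adjusted p = 0.0211), and left Cyp2g1 without a value. For all genes, 9 as reported, the counts were 2, 1, 1, 15, 25, 24, 38, 75 and 73 in that order, 32 with a stricter filter and 1 to 12 without 1 array. With the replicate number as a block, 0 members and 2 genes passed; same-numbered arrays deviated with correlations of -0.105 to 0.101. The count of members whose groups do not overlap, 4 as reported, was 3 to 5 throughout. Cyp2a5 passed in 8 of 20 alternatives, Cyp2g1 in 7 of 19, Cyp2a4 and Cyp2a12 in 1 each, and Cyp2b9 in none. Cyp2a22 was at 0.01 without wild type replicate 1 and at 0.14 without wild type replicate 4. Cyp2f2 was at -0.0025 without wild type replicate 2, at -0.046 without knock-in replicate 4 and at -0.084 without knock-in replicates 3 and 4. Leaving out 1 array gave -0.48 to 0.14 for Cyp2a22 and -0.046 to 0.074 for Cyp2f2. The cause of these moves was not tested. With 4 arrays a group, dim genes such as Cyp2b10 and Cyp2b13 and bright ones such as Cyp2a12 and Cyp2f2 are measured on compressed parts of the scale.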
